A study of Mus musculus with 6 samples.

Results

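Among the 21965 genes of the mRNA table, 51 had a mouse symbol that starts with Eif1 to Eif6 (the eIF2 kinases, Eif2ak, were left out). Of these, 50 held at least 10 counts over the 6 libraries and form the set of translation initiation factor genes described here. The one left out is Eif4e1b, which had no count in any library. The 50 genes were among 14792 genes with at least 10 counts that entered the test. The cells were endothelial progenitor cells (EPCs), a cell population grown out of bone marrow in culture, taken from male C57BL/6 mice that had arrived at 11 weeks of age. Each of 3 mice had breathed filtered air and each of another 3 had breathed concentrated ambient fine particles (CAP) at a mean of 67 µg/m3, on a schedule of 6 h per day over 30 days. Each library came from 1 mouse. Because the 3 mice of a group were housed in 1 cage, cage cannot be told apart from exposure, and p-values measure only the spread between these mice. Values of a group's 3 libraries are listed by replicate number.

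Translation initiation is the step at which a ribosome is placed on the start codon of an mRNA. The ternary complex of eIF2, GTP and the initiator tRNA joins the small ribosomal subunit together with eIF1, eIF1A and the large scaffold eIF3, while eIF4F, made of the cap-binding protein eIF4E, the scaffold eIF4G and the helicase eIF4A, brings the mRNA. After the start codon is found, eIF5 promotes GTP hydrolysis, eIF5B joins the large subunit, and eIF2B reloads eIF2 with GTP. Growing and dividing cells use this machinery heavily, and it is set by phosphorylation of eIF2 and of the eIF4E-binding proteins, neither of which mRNA counts measure.

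Libraries held 28713206 to 30446171 counts each, and the test read the spread between mice (biological coefficient of variation over all genes, 26.3%). The culture was checked against cell type markers, whose levels were summed as normalized counts (counts divided by a size factor of relative log expression, RLE). The 8 macrophage markers, led by Lyz2, had sums of 496359.6 to 514720.1 in air and 377015 to 431955 in CAP. Of the 8, 4 were lowest in CAP replicate 2, whereas Lyz2 was lowest in CAP replicate 3. Csf1r was highest in CAP replicate 2, at 15848 against 12204 to 13139 in air. Endothelial markers, which the labelled cell type would call for, were low, with sums of 1207 to 3232 in air and 1062 to 1386 in CAP, and 6 of the 8 were lowest in CAP replicate 2. Tek and Erg were both at 0 there, Tek also in CAP replicate 1, whereas Kdr was highest there, at 528 against 155 to 283 in air. Stromal markers summed to 129042 to 201372 in air and 52679.8 to 131286 in CAP, and all 8 were lowest in CAP replicate 2, with Lum at 0. All 8 had negative log2 fold changes, but 2 were positive without that library. Cxcl12 weighed heavily in the sums, at 49646 to 116980 in air and 5242 to 40723 in CAP. Col1a2 was at 51184 to 56322 in air and at 57838 and 61779 in CAP replicates 1 and 3. Megakaryocyte markers summed to 8791 to 10602 in air and 3083 to 6833 in CAP. Most of these sums was Pf4, at 7947 to 9549 in air and 2523 to 5884 in CAP. Itga2b and Ppbp overlapped between the groups, whereas Gp9 and Gp1bb, both at low counts, did not. Neutrophil markers summed to 262 to 482 in air and 325 to 439 in CAP, with Ly6g at 0 throughout. Erythroid and T cell markers were near 0, with no sum above 25.7, and Hbb-bs, Alas2, Cd3d and Cd3g at 0 in every library. CAP replicate 2 stood apart, with the lowest macrophage, stromal, endothelial and megakaryocyte sums and the highest sum of the 10 cycling genes. In bulk RNA, fewer cells of a type and less RNA per cell cannot be told apart.

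No initiation factor gene differed between CAP and air at an adjusted p under 0.05 in edgeR's quasi-likelihood test, nor did any of the 14792 genes tested (0.0% called). The lowest adjusted p among the 50 genes was 0.468. DESeq2 called 24 of the 14792 genes (0.162%) and none of the initiation factors, whose lowest DESeq2 adjusted p was 0.274. The study, which also used DESeq2 with RLE scaling, reported a larger number of genes at an adjusted p of at most 0.05. At an unadjusted p under 0.05, edgeR gave 7 of the 50 genes (14.0%) higher in CAP, against 5.89% of all genes tested, and 0 lower, against 4.68%. The 7 genes were Eif5a, Eif4g1, Eif2s3x, Eif6, Eif3d, Eif3c and Eif4ebp1.

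The log2 fold changes of CAP over air were small. Of the 50 genes, 35 had a positive value and 15 a negative one, with a median of 0.17, while over all genes tested 48.8% were positive and the median was -0.01. None reached an absolute value of 1, and 17 reached 0.3. Among the 85 ribosomal proteins of the cytosol, the other large protein group of translation, 52 were positive with a median of 0.03. Every CAP library lay above every air library for 7 initiation factor genes, against 8.44% of all genes, and below every air library for 3, against 8.46%. The first 7 were Eif4g1, Eif4g3, Eif3c, Eif3d, Eif3j1, Eif2s3x and Eif4ebp3, and the other 3 were Eif1b, Eif4b and Eif4ebp2. These were 14.0% and 6.0% of the 50 genes.

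**Figure D1:**
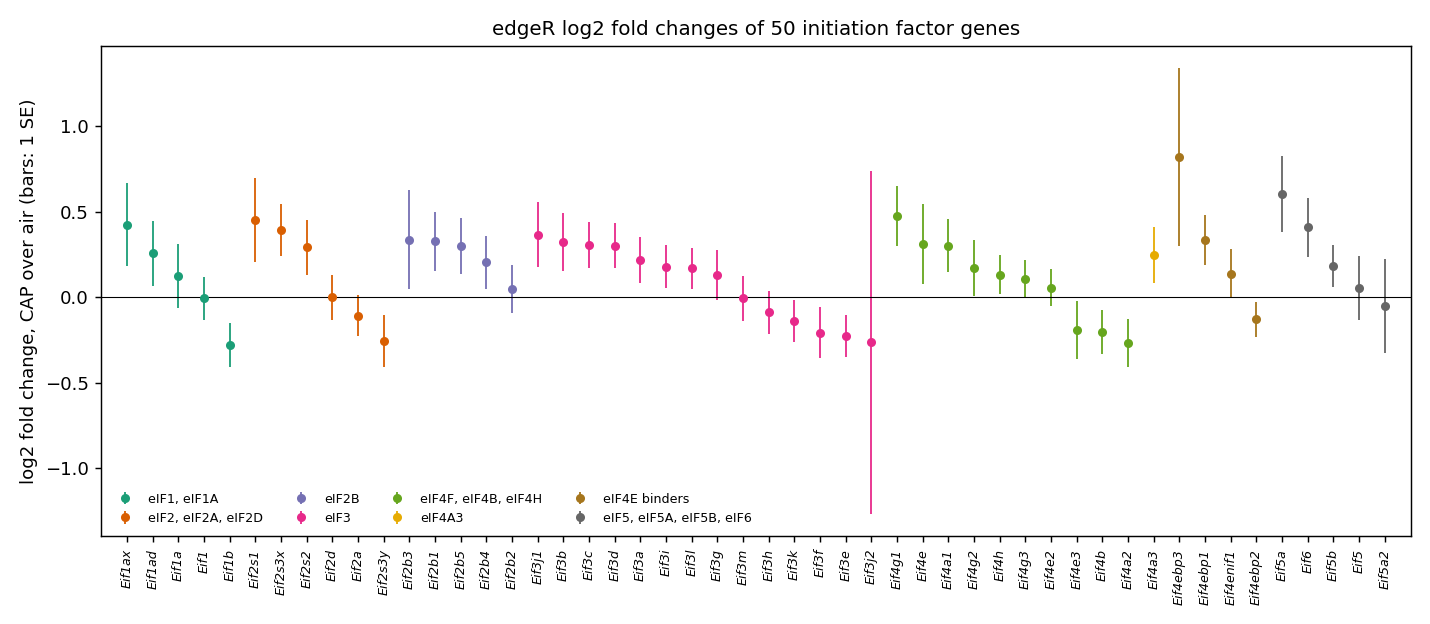
Log2 fold change of CAP over air (y axis) for the 50 initiation factor genes (x axis), coloured by role, with bars of 1 SE from edgeR. Positive values outnumber negative ones, all values lie between -1 and 1, and no gene passed an adjusted p of 0.05. The longest bar is that of Eif3j2, whose counts are very low.

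The positive values were largest in 1 library. CAP replicate 2 held the highest value of the 6 libraries for 29 of the 50 genes and the lowest for 5. Over all 14792 genes tested it was also often extreme, the highest for 4405 and the lowest for 4699. Among the 50 genes, CAP replicate 2 lay above every air library for 33, compared with 20 for CAP replicate 1 and 11 for CAP replicate 3. The same count over all genes is not given here. Measured against the mean of the air libraries on a log2 scale, the median initiation factor gene was at 0.07, -0.03 and -0.05 in the air libraries and 0.11, 0.36 and 0.03 in the CAP libraries. Thus CAP replicate 3 was within the range of the air libraries, and CAP replicate 1 was slightly above it. Counts of the 50 genes made up 0.736% to 0.814% of an air library and 0.821%, 0.986% and 0.802% of the CAP libraries.

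**Figure D2:**
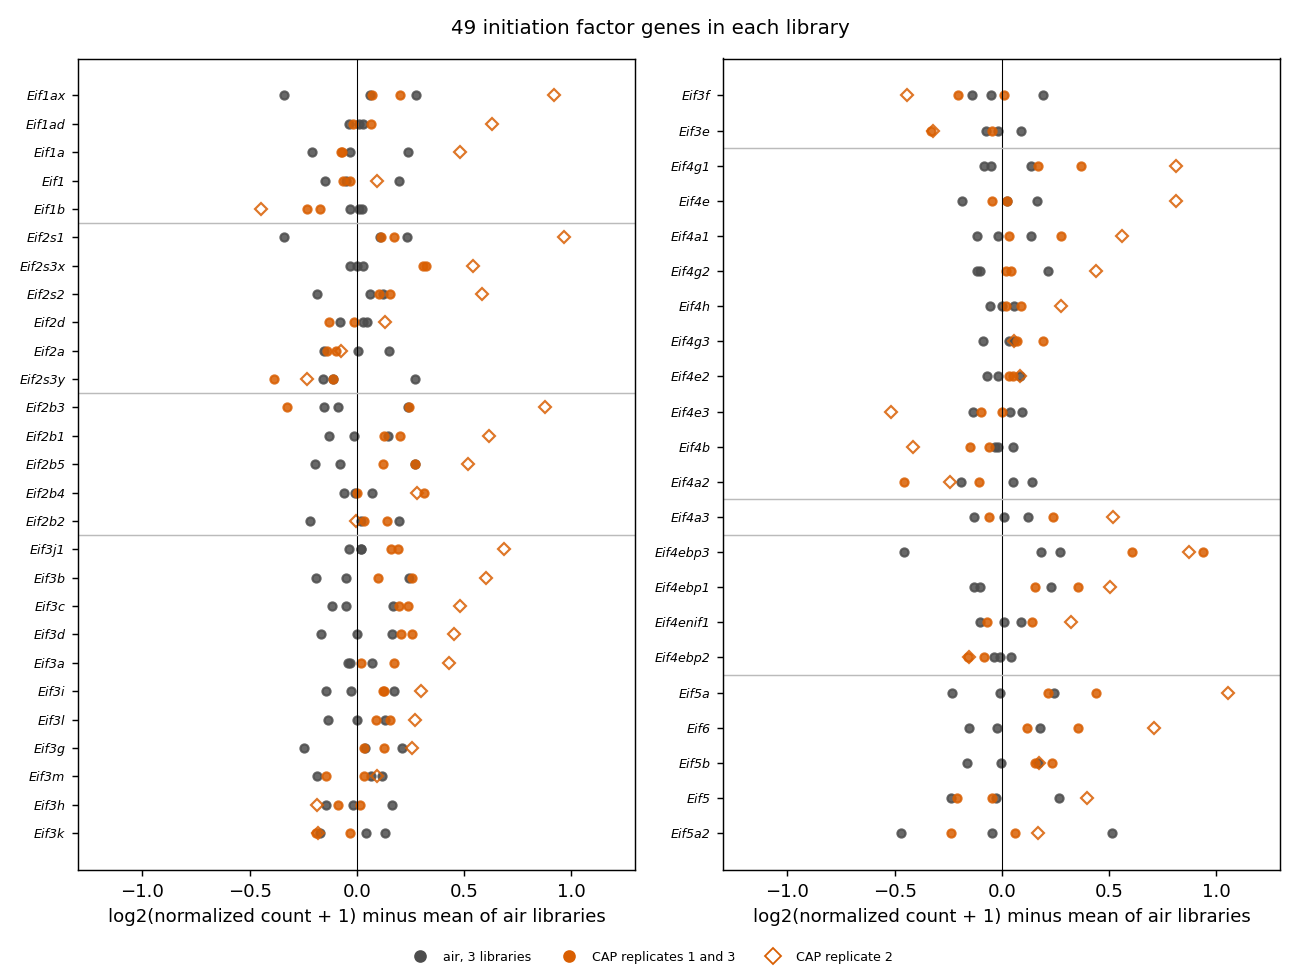
Each point is 1 library's log2(normalized count + 1) minus the mean of the 3 air libraries (x axis) for 49 initiation factor genes ordered by role (y axis). Filled grey points are air, filled orange points are CAP replicates 1 and 3, and open diamonds are CAP replicate 2. That library is the highest for 29 of all 50 genes and for 4405 of the 14792 genes tested.

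Cycling genes were highest in the same library. The 10 listed (Mki67, Top2a, Ccnb1, Cdk1, Plk1, Aurkb, Bub1, Mcm2, Mcm5 and Pcna) summed to 16655 to 17949 normalized counts in air and to 22756, 37929.7 and 16788 in the CAP libraries, and all 10 were highest in CAP replicate 2. Their median stood at 0.44, 1.32 and 0.01 above the air mean (log2) in the 3 CAP libraries, the same order as for the initiation factors. The median ribosomal protein gene was at -0.03, 0.07 and 0.06. The part of cycling cells in the values of the initiation factor genes was not tested.

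**Figure D3:**
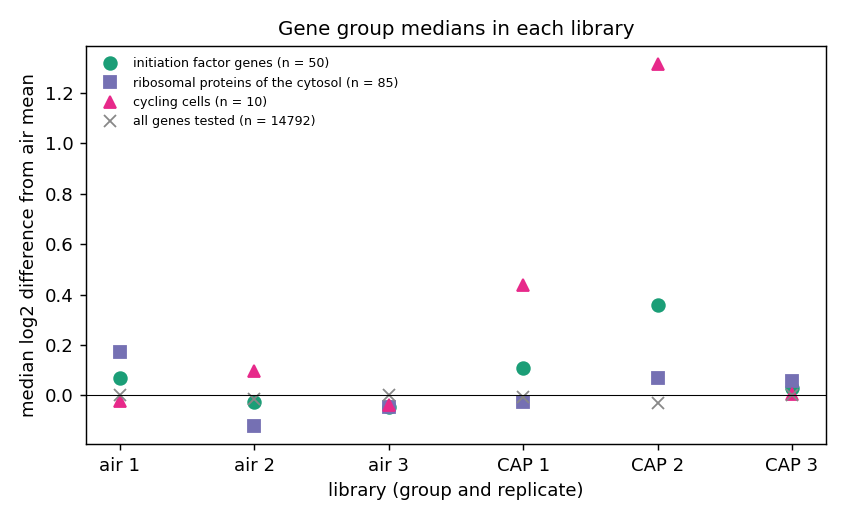
Median difference from the air mean (log2, y axis) in each of the 6 libraries (x axis) for the initiation factor genes, the ribosomal proteins, the cycling genes and all genes tested. CAP replicate 2 is at 0.36 for the initiation factors, 1.32 for the cycling genes and 0.07 for the ribosomal proteins.

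Without CAP replicate 2, the median log2 fold change of the 50 genes was 0.057 and 30 were positive. None had an unadjusted p under 0.05 in edgeR, against 4.11% of genes higher in CAP in the same fit, and the lowest p was 0.0615. The sign was the same with and without this library for 45 genes. All 15 negative genes remained negative and 30 of the 35 positive genes remained positive, but 32 of these 35 had a smaller value. The count of 7 genes at an unadjusted p under 0.05 (edgeR) also changed when other libraries were left out. It was 0 without air replicate 2 or air replicate 3, 2 without CAP replicate 1, 8 without air replicate 1 and 12 without CAP replicate 3. The share of all genes in these smaller fits is not given here, so these counts have no background. Without air replicate 2 or air replicate 3 the median log2 fold change was still 0.19 or 0.15, with 72% or 68% of the genes positive.

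**Figure D4:**
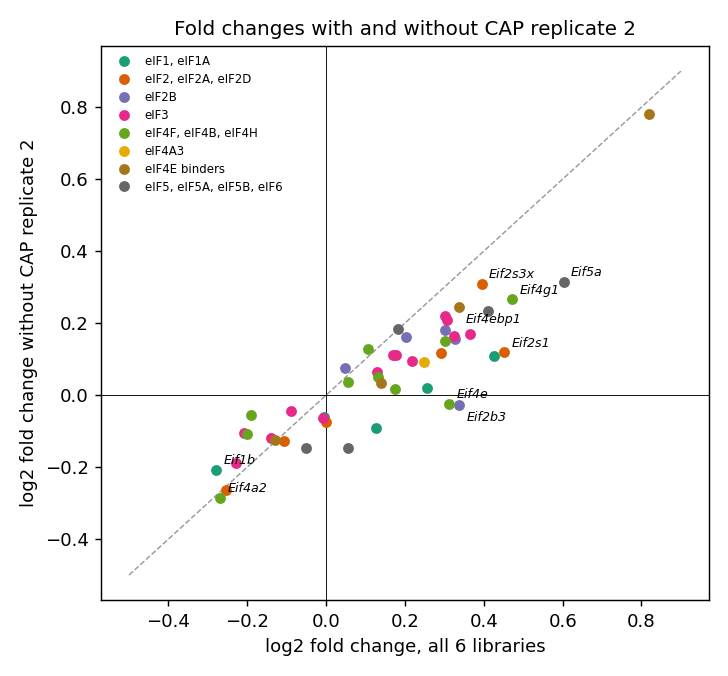
Log2 fold change of CAP over air with all 6 libraries (x axis) and without CAP replicate 2 (y axis), 1 point per initiation factor gene, without Eif3j2. Points below the diagonal on the right, such as Eif5a (0.60 and 0.31) and Eif2s1 (0.45 and 0.12), lost much of their value, whereas Eif2s3x (0.40 and 0.31) kept more of it.

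The factors that hold the small subunit open for scanning and check the start codon, eIF1 and eIF1A, are encoded by Eif1, Eif1b, Eif1a and Eif1ax, and Eif1ad encodes a protein related to eIF1A. Of these 5 genes, 3 had positive and 2 negative log2 fold changes. Eif1b, a close relative of Eif1, was at 1343, 1383 and 1395 normalized counts in air mice and 1170.1, 1007 and 1218 in CAP mice. All 3 CAP libraries lay below the air libraries, with a log2 fold change of -0.28 ± 0.13 (SE), which did not pass (edgeR adjusted p = 0.471). Eif1 itself, with 2573 normalized counts per kilobase of exon in air the most abundant of the 5 per length, was at 6161, 4847 and 5188 normalized counts in air mice and 5141, 5732 and 5252 in CAP mice. The groups overlapped, and the log2 fold change was -0.01. Eif1ax, the X-linked gene of eIF1A, was at 2057, 2387 and 1555 normalized counts in air mice and 2265, 3723 and 2067 in CAP mice. Its log2 fold change of 0.42 ± 0.24 (SE) was 0.11 without CAP replicate 2, the only CAP library above the air range. Eif1a and Eif1ad had log2 fold changes of 0.13 and 0.26, and -0.09 and 0.02 without CAP replicate 2.

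Eif2s1, Eif2s2 and the pair Eif2s3x and Eif2s3y encode the alpha, beta and gamma subunits of eIF2. Eif2s1, whose product carries the serine that stress kinases phosphorylate, was at 2382, 2599.7 and 1745 normalized counts in air mice and 2394, 4315 and 2497 in CAP mice. Only CAP replicate 2 was outside the range of air, and the log2 fold change of 0.45 ± 0.25 (SE) was 0.12 without it. The log2 fold change of Eif2s2 was 0.29, and 0.12 without CAP replicate 2. The gamma subunit had copies on both sex chromosomes with opposite signs. Eif2s3x (ENSMUSG00000035150, chrX:94188707-94212862) was at 510.4, 489.8 and 501 normalized counts in air mice and 626, 730.4 and 619 in CAP mice. The air libraries lay close together, and every CAP library was above them, with a log2 fold change of 0.40 ± 0.15 (SE; edgeR unadjusted p = 0.0302, adjusted p = 0.468). Its Y-linked copy Eif2s3y (ENSMUSG00000069049, chrY:1010543-1028847) was at 1952, 2635 and 2017 normalized counts in air mice and 1666, 1855 and 2018 in CAP mice. These groups overlapped, and its log2 fold change was -0.25 ± 0.15 (SE).

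As a share of both gamma subunit genes, normalized counts of Eif2s3x were 20.7%, 15.7% and 19.9% in the air libraries and 27.3%, 28.2% and 23.5% in the CAP libraries, without overlap. The log2 ratio of Eif2s3x to Eif2s3y was 0.64 higher in CAP. A 2-sided exact permutation test gave p = 0.1, the smallest that 3 against 3 libraries allow, and 0.225 after Benjamini-Hochberg adjustment over 9 ratios of related genes that were chosen after the data were seen. Of the 75-base words of the Eif2s3x exons, 34.2% also occur in other gene models, nearly all in Gm2223, which has no row in the table, so that its counts are uncertain. Eif2a and Eif2d, which encode separate proteins that can bring tRNA to the ribosome, had log2 fold changes of -0.11 and 0.00.

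All 5 subunits of eIF2B, the exchange factor that is blocked by phosphorylated eIF2, had positive log2 fold changes, with a median of 0.30. Without CAP replicate 2, 4 did and the median was 0.16. Eif2b1, the alpha subunit, was at 983, 812 and 879.7 normalized counts in air mice and 969.8, 1362 and 1023 in CAP mice, a log2 fold change of 0.33 ± 0.17 (SE; edgeR adjusted p = 0.488). Eif2b5, the catalytic epsilon subunit, was at 2251, 1767 and 1628 normalized counts in air mice and 2251, 2672 and 2030.4 in CAP mice, a log2 fold change of 0.30 ± 0.16 (SE). In both genes CAP replicate 2 was the highest library, and the groups overlapped. Without it their log2 fold changes were 0.16 and 0.18. Per kilobase of union exon the highest subunit in air was Eif2b2 (beta) and in CAP Eif2b5. Eif2b2 was at 1722, 1291 and 1525 normalized counts in air mice and 1537, 1498 and 1658 in CAP mice. Its CAP values all lay inside the air range, with a log2 fold change of 0.05. Eif2b3 (gamma) and Eif2b4 (delta) had log2 fold changes of 0.34 and 0.20, and that of Eif2b3 was -0.03 without CAP replicate 2.

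The eIF3 scaffold was split in sign. Of its 14 genes, 8 had positive and 6 negative log2 fold changes, with a median of 0.15, and the same 8 were positive without CAP replicate 2, with a median of 0.08 over the 14. Eif3d, whose product can itself contact the cap of an mRNA, was at 4697, 3732 and 4201 normalized counts in air mice and 5004, 5737 and 4829 in CAP mice. Every CAP library was above every air library, although the margin over air replicate 1 was narrow, and the log2 fold change was 0.30 ± 0.13 (SE; edgeR unadjusted p = 0.0472, adjusted p = 0.468). Eif3c, a core subunit, was at 9803, 8414 and 8055 normalized counts in air mice and 10299, 12198 and 9994 in CAP mice. Here too the groups did not overlap, and the log2 fold change was 0.31 ± 0.13 (SE; edgeR unadjusted p = 0.0475, adjusted p = 0.468). Per kilobase of union exon the highest of the complex in air was Eif3h, with 3833 normalized counts (with principal transcripts Eif3k was). Eif3h was at 6893, 5566 and 6079 normalized counts in air mice and 5797, 5410.2 and 6223 in CAP mice. Its groups overlapped, with a log2 fold change of -0.09.

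Subunits were also read by their known place in the complex, a grouping made after the values were seen. In the octamer core (a, c, e, f, h, k, l and m) 3 subunits had positive and 5 negative log2 fold changes, with a median of -0.05 and a range from -0.23 for Eif3e to 0.31 for Eif3c. The module of b, g and i had 3 positive log2 fold changes, 0.32, 0.13 and 0.18. Eif3j1, which encodes the loosely bound subunit, had a log2 fold change of 0.37, and 0.17 without CAP replicate 2. The count of positive subunits in the core and in the b, g and i module was the same without CAP replicate 2, where b, g and i were at 0.16, 0.06 and 0.11. Eif3e and Eif3f, both negative, had log2 fold changes of -0.23 and -0.21, -0.19 and -0.11 without CAP replicate 2, and the CAP libraries overlapped the air libraries in each. Eif3j2, a near-identical copy of Eif3j1, had a mean of 7.09 normalized counts in air, and 87.4% of its 75-base words also occur in Eif3j1, so that its log2 fold change of -0.26 and part of that of Eif3j1 are uncertain.

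**Figure D5:**
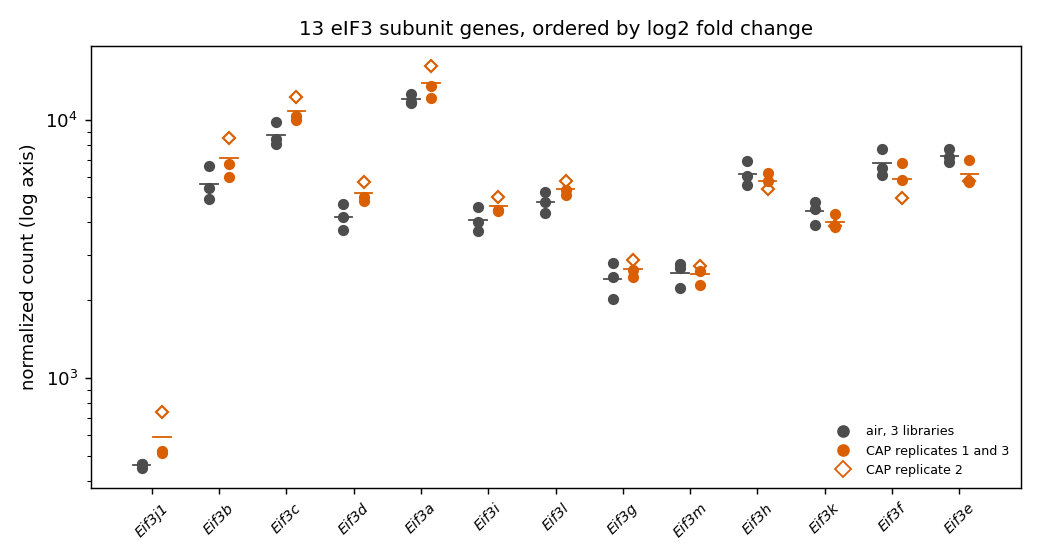
Normalized counts (y axis, log scale) of 13 eIF3 subunit genes, ordered by log2 fold change (x axis), in each of the 6 libraries, with a line at each group's mean. Points for CAP replicate 2 (open diamonds) are at the top of their gene on the left, from Eif3j1 to Eif3g, and at the bottom for Eif3h and Eif3f.

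Levels per kilobase of the union of exons differed within complexes. In air the highest subunit of eIF3 was 48.7 times the lowest (Eif3h over Eif3j1) but 4.52 times without the loosely bound and uncertain Eif3j1 (Eif3h over Eif3d), that of eIF2B (Eif2b2 over Eif2b3) was 10.6 times the lowest and that of eIF2, with both gamma genes added, 1.63 times. In CAP the ratios over all subunits were 35.5, 9.33 and 1.25. The ratios and the subunits compared depend on the length taken for each gene. With the principal transcript the ratios in air were 67.3 (Eif3k over Eif3j1), 3.25 (Eif2b2 over Eif2b4) and 2.03. Across all 50 genes, 41 had a mean of at least 1000 normalized counts and 2 a mean under 50, and the median coefficient of variation between mice was 10.97% in air and 12.39% in CAP.

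The cap-binding group held 10 genes, 7 with positive and 3 with negative log2 fold changes. Eif4g1, the main scaffold of eIF4F (ENSMUSG00000045983, chr16:20668313-20692884), was at 15878, 13639 and 13940.0 normalized counts in air mice and 18682, 25359 and 16266 in CAP mice, or 14485 ± 1215 in air and 20102 ± 4709.8 in CAP (SD, n = 3 each). Every CAP library was above every air library and CAP replicate 2 was far above the rest. The log2 fold change was 0.47 ± 0.17 (SE; edgeR unadjusted p = 0.0252, adjusted p = 0.468) and 0.27 without CAP replicate 2. Eif4g3, a second scaffold gene, had a log2 fold change of 0.11 and groups that did not overlap either. Eif4g2, which encodes a scaffold that lacks the site for eIF4E, had a log2 fold change of 0.17, and 0.02 without CAP replicate 2.

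The helicase genes had opposite signs. Eif4a1, the main helicase of growing cells, was at 14743, 13232 and 12359 normalized counts in air mice and 16245, 19759 and 13711 in CAP mice. The groups overlapped, with a log2 fold change of 0.30 ± 0.16 (SE; edgeR adjusted p = 0.484) and 0.15 without CAP replicate 2, and 25.4% of its 75-base words also occur in other gene models, most of them in the pseudogene Eif4a-ps4. Eif4a2 had a log2 fold change of -0.27 ± 0.14 (SE). The ratio of Eif4a1 to Eif4a2 was 1.36 to 1.92 in air and 1.69 to 2.67 in CAP, which overlap (2-sided exact permutation p = 0.2, adjusted p = 0.36 over the 9 ratios). Eif4b, a cofactor of the helicase, was in air the highest of the group per kilobase of union exon, and in CAP Eif4a1 was. With principal transcripts it was Eif4g2, but its principal transcript has 742 bases and its longest 7995, so that this rank is uncertain. Eif4b was at 17577, 16752 and 16562 normalized counts in air mice and 15278, 12711 and 16292 in CAP mice. All CAP libraries were below all air libraries, by little in CAP replicate 3, and the log2 fold change was -0.20 ± 0.13 (SE; edgeR adjusted p = 0.555) and -0.11 without CAP replicate 2. Among the cap-binding proteins, the log2 fold change was 0.31 for Eif4e (-0.02 without CAP replicate 2), 0.06 for Eif4e2 and -0.19 for Eif4e3 (-0.06 without it), and it was 0.13 for the helicase cofactor Eif4h (0.05 without it).

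Eif4g1, Eif4a1, Eif4e and Eif5a share a short element before their start sites, the E-box bound by MYC and its relatives. The following stretches of 46 bases, from RefSeq on GRCm38.p6, show it with 20 bases on each side, 5′ to 3′ on the strand of the gene, and the capitals mark the E-box. Eif3f is shown beside them as a gene with a negative log2 fold change.
Eif4g1, chr16:20672653-20672698, plus strand: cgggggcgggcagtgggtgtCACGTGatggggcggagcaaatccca
Eif4a1, chr11:69672587-69672632, minus strand: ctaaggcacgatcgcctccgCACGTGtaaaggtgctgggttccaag
Eif4e, chr3:138527184-138527229, plus strand: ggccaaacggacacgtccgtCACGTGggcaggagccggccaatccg
Eif5a, chr11:69921435-69921480, minus strand: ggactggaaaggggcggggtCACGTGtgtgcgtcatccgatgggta
Eif3f, chr7:108934327-108934372, plus strand: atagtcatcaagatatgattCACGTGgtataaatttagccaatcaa

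The E-box was searched as CACGTG, a palindrome that reads the same on both strands, in windows of 300 bases (250 before to 50 after the RefSeq start). Of the 50 genes, 39 had a window, and 10 of them (25.6%) held the E-box, compared with 8.09% of 27025 genes with a window and 11.1% of those tested. The 10 were Eif1b, Eif3a, Eif3f, Eif3k, Eif4a1, Eif4e, Eif4g1, Eif4h, Eif5a and Eif5a2. It occurred in 6 of 28 genes with a positive log2 fold change and in 4 of 11 with a negative one. The element of the stress factor ATF4, TGATGNAAT searched on both strands, was found in none of the 39, in 1.08% of all and in 0.61% of those tested. At shares this low, its absence from 39 genes is uninformative. These are matches of letters, and binding was not measured.

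Proteins that bind eIF4E and keep it from eIF4G are encoded by the 3 Eif4ebp genes, and they did not share a sign. Eif4ebp1 was at 3270.5, 2601 and 2552 normalized counts in air mice and 3574, 3962 and 3103 in CAP mice. Only CAP replicate 3 fell within the air range, and the log2 fold change was 0.34 ± 0.15 (SE; edgeR unadjusted p = 0.0486, adjusted p = 0.468). Eif4ebp2, with the smallest SE of the 50 genes, was at 5106, 5006 and 5296 normalized counts in air mice and 4855, 4625 and 4604 in CAP mice. The CAP libraries were all lower, with a log2 fold change of -0.13 ± 0.10 (SE; edgeR adjusted p = 0.621). Eif4ebp3 was rare, at 13.2, 14.1 and 8.15 normalized counts in air mice and 18.1, 22 and 23 in CAP mice. Its CAP libraries were all higher, but with a log2 fold change of 0.82 ± 0.52 (SE) the error was large, and 64.2% of its 75-base words occur in a second gene model without a row in the table.

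The ratio of Eif4ebp1 to Eif4ebp2 was 0.482 to 0.640 in air and 0.674 to 0.857 in CAP, without overlap (2-sided exact permutation p = 0.1, the smallest possible, adjusted p = 0.225 over the 9 ratios). The ratio of Eif4ebp1 to Eif4e, the protein it binds, was 1.46 to 2.03 in air and 1.42 to 2.32 in CAP, which overlap (exact permutation p = 0.8, adjusted p = 0.8). Eif4enif1, which encodes the transporter of eIF4E into the nucleus, had a log2 fold change of 0.14, and 0.03 without CAP replicate 2.

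The largest log2 fold change among abundant initiation factor genes was that of Eif5a (ENSMUSG00000078812, chr11:69916714-69921958), whose product carries the modified amino acid hypusine and helps ribosomes through difficult peptide bonds. Its level was 10656, 8940.3 and 7672 normalized counts in air mice and 12222, 18729.6 and 10470.0 in CAP mice, or 9089.6 ± 1497 in air and 13807 ± 4352 in CAP (SD, n = 3 each). CAP replicate 2 was far above all other libraries, and CAP replicate 3 was just under air replicate 1, so that the groups overlapped. The log2 fold change was 0.60 ± 0.22 (SE; edgeR unadjusted p = 0.0251, adjusted p = 0.468) and 0.31 without CAP replicate 2. The enzymes that make hypusine, Dhps and Dohh, had log2 fold changes of 0.33 ± 0.20 and 0.19 ± 0.20 (SE), that of Dhps was 0.18 without CAP replicate 2, and neither passed. Eif5a2, the second gene of eIF5A, had a log2 fold change of -0.05, and -0.15 without CAP replicate 2.

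Eif6, which encodes a factor that keeps the large ribosomal subunit from joining too early, was at 2011, 1599 and 1754 normalized counts in air mice and 2281, 2912 and 1932 in CAP mice. CAP replicate 3 lay inside the air range and the others above it, with a log2 fold change of 0.41 ± 0.17 (SE; edgeR unadjusted p = 0.0424, adjusted p = 0.468) and 0.23 without CAP replicate 2. Eif5 and Eif5b, the factors for GTP hydrolysis and subunit joining, had log2 fold changes of 0.05 and 0.18, and -0.15 and 0.18 without CAP replicate 2. Eif4a3, a helicase of the exon junction complex that shares its name with the initiation factors, was at 1970.4, 1653 and 1822 normalized counts in air mice and 2139, 2594 and 1739 in CAP mice. The groups overlapped, with a log2 fold change of 0.25 ± 0.16 (SE) and 0.09 without CAP replicate 2.

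Other genes around initiation were read from lists. No gene of these lists passed an adjusted p of 0.05 in edgeR. Among 8 genes, the eIF2 kinases, the phosphatase regulators of eIF2 and Atf4, 6 had positive log2 fold changes (5 without CAP replicate 2). Of these 6, 1 had an unadjusted p under 0.05 with all libraries. This was Atf4, the transcription factor translated when eIF2 is phosphorylated, at 6283, 4957 and 5109.8 normalized counts in air mice and 6655, 8545 and 6358 in CAP mice. The CAP libraries were all above the air libraries, CAP replicate 3 by little, with a log2 fold change of 0.40 ± 0.15 (SE; edgeR adjusted p = 0.468) and 0.25 without CAP replicate 2. Ppp1r15a, which directs a phosphatase to eIF2, had a log2 fold change of 0.34 ± 0.15 (SE).

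Of 13 genes of mTORC1 and of the kinases of the cap-binding complex, 7 had positive and 6 negative log2 fold changes. Without CAP replicate 2, 9 of the 13 were positive. Pdcd4, which encodes an inhibitor of eIF4A, was at 2154, 2646 and 2685 normalized counts in air mice and 1330.3, 472 and 1903 in CAP mice. All CAP libraries were below all air libraries, and CAP replicate 2, the library with the highest values of most initiation factors, was the lowest. The log2 fold change was -1.01 ± 0.40 (SE; edgeR unadjusted p = 0.0322, adjusted p = 0.468) and -0.63 without CAP replicate 2. Larp1, which encodes a repressor of ribosomal protein mRNAs, had a log2 fold change of 0.47 ± 0.18 (SE) and 0.23 without CAP replicate 2.

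The 5 poly(A)-binding proteins and partners had 3 positive log2 fold changes (2 without CAP replicate 2), with Pabpc4 at 0.58 ± 0.21 and Paip2, an inhibitor of poly(A)-binding protein, at -0.31 ± 0.17 (SE), and at 0.35 and -0.17 without that library. Among 7 other initiation and recycling proteins 6 log2 fold changes were positive (4 without that library), with the ribosome recycling ATPase Abce1 at 0.65 ± 0.27 and Bzw2, a mimic of eIF5, at 0.47 ± 0.23 (SE), and at 0.23 and 0.15 without it. Of 10 elongation and termination factors 7 had positive log2 fold changes, and 10 did without CAP replicate 2. Eef1d and Eef1g, subunits of the exchange factor of eEF1A, were at 0.35 ± 0.14 and 0.40 ± 0.17 (SE), and at 0.22 and 0.27 without CAP replicate 2. Both mitochondrial initiation factors had negative log2 fold changes, with Mtif3 at -0.17 and Mtif2 at -0.09, and at -0.09 and -0.14 without that library.

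Reads shared between genes limit some values. For 26 of the 50 genes no 75-base word occurred in another gene, and for 5 (Eif2s3x, Eif4a1, Eif3j1, Eif3j2 and Eif4ebp3) more than 20% did. Exons of 11 genes share bases with a gene on the other strand and those of 10 with a gene on the same strand, and whether the counting used strand is not given in the sources used here.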

How the data were processed

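Per the labels and the study's methods, stranded poly-A libraries were sequenced from one end, and reads were called with bcl2fastq 20.0.422, checked with FastQC 0.10.1, aligned to mm10 with STAR 2.6 and counted per gene with HTSeq 0.10.0. The authors deposited raw counts, with a column for each mouse. How strand and multi-mapped reads were handled, and with which annotation, is not given in the sources used here. RNA was taken after 12 days of culture by the labels, and the study's methods give another duration.

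Names, positions and exon lengths came from GENCODE vM21 (GRCm38), which matched 21939 of 21965 IDs (99.9%). Genes with at least 10 counts were normalized by RLE and compared, CAP minus air, with edgeR 4.0.16 in R 4.3.3 (quasi-likelihood, Benjamini-Hochberg over all genes, threshold 0.05). The SE is the absolute log2 fold change over the square root of F. Log2 values had a pseudocount of 1. Alternatives were TMM, no filter, filterByExpr, DESeq2 1.42.0, limma-voom (limma 3.58.1), leaving out libraries in turn and a replicate block, and, added after the data were seen, an older form of the edgeR fit and other lengths. The fit was also run on simulated counts, drawn gene by gene without a shift shared by a whole library. That run does not vouch for the fit to these libraries.

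Genes and lists were chosen with earlier results of these data known. Described per library were, in each role group, the 2 genes of lowest unadjusted p and the gene of highest level per kilobase, the 3 Eif4ebp genes, Eif2s3x and Eif2s3y, and in other lists the 2 of lowest p were named. Further genes, the ratios and the eIF3 modules were chosen after values were seen.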

Additional observations from a re-analysis of the deposited data

How the results depend on the processing

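No initiation factor gene passed an adjusted p of 0.05 under any of the 13 alternatives, and the lowest adjusted p of any was 0.143. The sign held under all of them for 19 of the 21 genes chosen by the naming rule. The exceptions, Eif1 and Eif2b2, were both near 0. The rule picked many of these genes for a low p in the same data, which favours a stable sign. Some genes not chosen by it reversed. Without CAP replicate 2, the log2 fold change went from 0.31 to -0.02 for Eif4e and from 0.34 to -0.03 for Eif2b3. The sign was the same with and without that library for 45 initiation factor genes. The count at an unadjusted p under 0.05 and higher in CAP was 4 with the older form of edgeR's quasi-likelihood fit. Leaving out each library gave 0 to 12 higher and 0 to 1 lower, a median log2 fold change of 0.057 to 0.22 and 60% to 76% positive genes, with Eif1 at -0.0787 to 0.0988 and Eif2b2 at -0.0536 to 0.152. The lowest median was without CAP replicate 2.

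The highest over the lowest level per kilobase depended on the length and the group. For eIF2 it was 1.25 in CAP, 1.28 with the longest transcript and 2.03 with the principal transcript, for eIF2B 9.33, 7.16 and 3.25, and for eIF3 35.5, 56.3 and 67.3. Without Eif3j1, a choice made after the values were seen, that of eIF3 was 4.52.

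Deviations of same-numbered libraries from their group means correlated at -0.08, 0.20 and 0.45 (11828 genes), and not every library correlated best with its own number. These correlations cannot decide whether libraries were paired, since deviations within a group depend on each other. The replicate numbers are those of the sample titles, and for some libraries the deposited column names carry other numbers. With a replicate block on the title numbers edgeR gave 6 genes higher at an unadjusted p under 0.05. It gave 0 at an adjusted p under 0.05, 68% positive genes and a median of 0.17.

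With 3 mice per group the spread between mice limits these values, and for Eif3j2 and Eif4ebp3 low counts do so as well.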
